A study of Sus scrofa with 599 samples.

Results

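The greater omentum (GOM), the apron of visceral fat that hangs from the stomach, was compared between pigs that had never been obese (normal condition, NC) and pigs that had been fattened and then made to lose weight (weight loss, WL). The samples were taken by their labels alone: 9 NC and 10 WL libraries of RNA-seq and 9 NC and 10 WL libraries of in situ Hi-C, 38 of the 599 samples of the series. All were from female Bama miniature pigs that were 2 years old when the diets began, and each library of a kind came from a different pig. The NC pigs stayed on a normal diet. The WL pigs were drawn at random from animals given a high-fat diet for 22 weeks and then received 10% of the normal caloric intake for 12 weeks. By the mean weights that the study gives, they were still heavier than the NC pigs after the restriction. Past obesity, restriction, present body weight and the later time of sampling therefore cannot be told apart in them. Libraries of obese pigs taken at the end of the high-fat diet (weight gain, WG; 45 of RNA-seq) serve as a reference and carry the fits that separate library composition from group. H3K27ac ChIP-seq of GOM, a mark of active enhancers, came as 1 pooled table for 3 NC and 1 for 4 WL samples.

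White adipocytes build fatty acids from carbohydrate (de novo lipogenesis), take up more from circulating lipoproteins through lipoprotein lipase, store both as triglyceride and release them by lipolysis when food is short. Leptin, secreted by adipocytes, reports fat mass to the brain. The omentum also carries a mesothelial cover, dense vessels and clusters of immune cells, and it is the depot whose growth is most closely tied to metabolic disease. The adipocyte marker ADIPOQ (adiponectin) was high in every library, at 1002 to 3018 scaled TPM in NC (median 2053) and 868 to 3988 in WL (median 2526), and WT1, which marks the mesothelium of visceral fat, was present in all of them at 41.3 to 131 (median 83.5) in NC and 19.5 to 149 (median 46.2) in WL. A scaled TPM is the deposited TPM (a level per transcript length, relative to all transcripts of the library) times 1 factor per library that puts it on the scale of the count fits. In these bulk samples fewer cells of a type and less RNA per cell cannot be told apart.

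The libraries of both groups stood apart in composition, which bears on every result below. The 13 mitochondria-encoded protein-coding genes (PCGs) took 12.1 to 37.4% of the PCG TPM in the NC libraries (median 16.3%) and 0.653 to 3.14% in the WL libraries (median 1.75%), with no overlap (exact permutation test, two-sided, p = 2.17e-05). The WG libraries fell on both sides of this gap: 18 of the 45 had 13.5 to 28.97% and the other 27 had 1.14 to 4.21%, with none in between. All NC libraries thus lay on one side of a limit of 10% and all WL libraries on the other, so a direct comparison of NC and WL cannot tell the groups and this property of the libraries apart. The labels name no such sets, but the replicate numbers in them were unevenly spread. Of the 18 WG libraries of high share 6 were numbered under 11 and 9 from 37 on. Of the 27 others 4 and 1 were. What the numbers stand for is not given. Other genes split between the same 2 kinds of WG library. TCF7L2, a transcription factor of WNT signalling, lay at 50.8 to 116 scaled TPM in the 18 WG libraries with a high share and at 4.70 to 13.9 in the other 27, and NR1D1 (REV-ERBα), a repressor of the clock, at 6.48 to 31.2 and 0 to 2.74. Because WG holds both kinds, the set (share of 10% or more, or below) could be fitted as a term beside the group over all 64 GOM libraries. This fit was chosen after seeing the data, assumes that the set shifts a gene equally in every group, and rests on the 45 WG libraries, since NC and WL each hold 1 kind. Its values are given as those with the set as a term. The cause of the split was not tested.

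The libraries also differed in the share of the summed TPM of PCGs, lncRNAs and transcripts of uncertain coding potential that PCGs took. It was 74.8 to 96.0% in NC (median 79.0%) and 70.8 to 91.4% in WL (median 87.5%), and the groups overlapped (exact permutation test, two-sided, p = 0.263). A limit of 88% left 7 NC and 6 WL libraries below it and 2 NC and 4 WL libraries at or above it. Depth on PCGs was 7835504 to 17521417 estimated counts in NC and 10221110 to 19119707 in WL (exact permutation test, two-sided, p = 0.0232). The 18 WG libraries of high mitochondria-encoded share had a PCG share of 92.4 to 96.4% and a depth of 14963358 to 20910121. In PCG share they were thus unlike the 7 NC libraries below 88%. The 27 other WG libraries had a PCG share of 76.1 to 94.2%. The fit with the mitochondrial set as its only added term does not adjust for the PCG share, so its values can hold differences tied to that share.

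**Figure D1:**
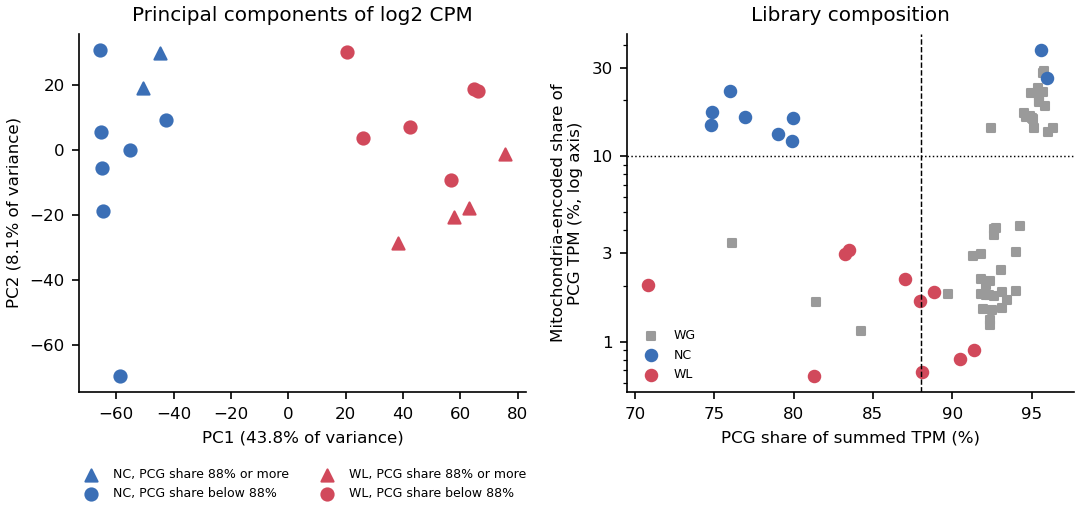
Left, principal components of log2 CPM of the 19 NC (blue) and WL (red) libraries, with the shape showing the PCG share of summed TPM; PC1 holds 43.8% of the variance and separates the groups. Right, the mitochondria-encoded share of PCG TPM (log axis, limit of 10% dotted) against the PCG share of summed TPM (limit of 88% dashed) for NC, WL and the 45 WG libraries (grey); all NC libraries lie above 10% and all WL libraries below it, and WG libraries lie in both ranges.

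Of 14440 PCGs tested with edgeR, 2229 were higher and 2985 lower in WL than in NC (15.4% and 20.7% of those tested, 36.1% together). A gene was called at a fold change over 1.5 and a Benjamini-Hochberg adjusted p below 0.05. The ranges of the groups did not overlap for 837 PCGs with WL above NC (5.8%) and 831 with WL below NC (5.75%). With the mitochondrial set as a term, 991 PCGs were called higher and 1117 lower (6.86% and 7.74%). Only 894 of the 5214 genes of the direct comparison were then called in the same direction, 257 higher and 637 lower in WL (1.78% and 4.41% of those tested), and 1742 took the opposite sign. The counts of each gene list below are to be set beside these shares over all PCGs. A count near them is no result about the list. Within the sets, 586 PCGs were higher and 1280 lower in the 18 WG libraries of high share than in NC (4.06% and 8.86%), and 701 were higher and 483 lower in WL than in the 27 WG libraries of low share (4.85% and 3.34%). These comparisons share their NC or WL samples with the direct one, so their values are only set side by side.

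Genes of de novo lipogenesis were lower in WL in both fits. Of 19 members tested, 10 fell and 1 rose (median log2 fold change -0.61, against -0.01 over all PCGs), and with the mitochondrial set as a term 7 fell and none rose (median -0.76). FASN, the fatty acid synthase (chromosome 12, 922405 to 937560, Sscrofa11.1), spanned 368 to 1579.7 scaled TPM in NC (median 575) and 7.14 to 85.5 in WL (median 28.6). Every WL library lay far under every NC library and under the WG median of 800.1 scaled TPM. Its log2 fold change of WL over NC was -4.49 ± 0.46, adjusted p = 1.18e-07 (SE throughout; edgeR quasi-likelihood test), and -4.08 ± 0.63, adjusted p = 2.72e-06 with the set as a term. Within the sets, FASN did not pass the test between NC and the WG libraries of high share, at 0.68 (adjusted p = 0.107), and was lower in WL than in the WG libraries of low share, at -4.72 (adjusted p = 1.52e-06).

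ME1, the malic enzyme that supplies NADPH to fatty acid synthesis, spanned 105 to 326 (median 131) in NC and 14.7 to 82.0 (median 31.9) in WL. The groups did not overlap and the log2 fold change was -2.34 ± 0.31, adjusted p = 2.18e-06 (-2.32 ± 0.41, adjusted p = 4.18e-05 with the set as a term). ACLY, which makes cytosolic acetyl-CoA from citrate, spanned 64.2 to 311 (median 106) in NC and 34.8 to 60.6 (median 48.2) in WL, again without overlap. Its log2 fold change was -1.65 ± 0.27, adjusted p = 2.68e-05 (-2.04 ± 0.51, adjusted p = 0.00313 with the set). ELOVL5, a fatty acid elongase, overlapped between the groups at 320.1 to 610.0 (median 442) in NC and 157 to 565 (median 254) in WL, with a log2 fold change of -0.63 ± 0.19, adjusted p = 0.00958 (-0.94 ± 0.29, adjusted p = 0.0157 with the set).

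MLXIPL, which encodes ChREBP, the carbohydrate-sensing activator of these enzymes, spanned 25.4 to 71.8 (median 48.4) in NC and 2.35 to 8.44 (median 4.93) in WL without overlap. Its log2 fold change of -3.08 ± 0.26, adjusted p = 1.37e-08 shrank to -1.06 ± 0.32, adjusted p = 0.0145 with the set as a term. The WG libraries of high and low share lay at 22.4 to 80.8 and 4.04 to 24.7. The other genes called lower in both fits were ACSS2 and TKT. ACACA (acetyl-CoA carboxylase) and SCD (stearoyl-CoA desaturase) did not pass the test. ACACA had -0.45 ± 0.21, adjusted p = 0.0786 directly and -0.73 ± 0.33, adjusted p = 0.11 with the set. SCD spread from 52.1 to 757 (median 144) in NC and 9.10 to 446 (median 131) in WL. It had -0.61 ± 0.64, adjusted p = 0.439 directly and -1.26 ± 0.72, adjusted p = 0.225 with the set. FADS1, a desaturase of polyunsaturated fatty acids, was the 1 member called higher (0.96 ± 0.18, adjusted p = 0.000101). It was not called with the set (0.30 ± 0.22, adjusted p = 0.349).

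The sequence before the start of FASN is shown because it had the largest change of the 7 genes that fell in both fits. Those of ACLY, ELOVL5 and ME1 are shown as windows of that group that hold motif matches. Each window is the 250 bases before the RefSeq gene start in Sscrofa11.1, 5′ to 3′ on the strand of the gene. The windows lie at chr12:922155-922404 on the plus strand, chr12:20796428-20796677 on the plus strand, chr7:46932946-46933195 on the minus strand and chr1:82799628-82799877 on the plus strand. Capitals mark matches of 3 motifs on either strand, which are the E-box CACGTG, the CCAAT box CCAAT and the GC box GGGCGG.
FASN: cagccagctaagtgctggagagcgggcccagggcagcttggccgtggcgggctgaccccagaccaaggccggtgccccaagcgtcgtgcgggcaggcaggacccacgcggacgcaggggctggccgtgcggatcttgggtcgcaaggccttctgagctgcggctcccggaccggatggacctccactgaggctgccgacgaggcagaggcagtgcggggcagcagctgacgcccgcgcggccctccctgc
ACLY: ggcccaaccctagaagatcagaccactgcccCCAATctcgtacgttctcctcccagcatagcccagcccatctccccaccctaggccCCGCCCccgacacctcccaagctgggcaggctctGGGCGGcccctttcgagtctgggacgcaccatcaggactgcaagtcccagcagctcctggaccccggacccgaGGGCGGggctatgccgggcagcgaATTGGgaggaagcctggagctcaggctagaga
ELOVL5: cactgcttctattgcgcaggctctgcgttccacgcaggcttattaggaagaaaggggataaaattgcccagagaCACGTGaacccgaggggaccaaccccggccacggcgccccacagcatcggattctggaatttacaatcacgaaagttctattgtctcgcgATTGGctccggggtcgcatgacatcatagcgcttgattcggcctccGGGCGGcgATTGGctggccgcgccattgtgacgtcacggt
ME1: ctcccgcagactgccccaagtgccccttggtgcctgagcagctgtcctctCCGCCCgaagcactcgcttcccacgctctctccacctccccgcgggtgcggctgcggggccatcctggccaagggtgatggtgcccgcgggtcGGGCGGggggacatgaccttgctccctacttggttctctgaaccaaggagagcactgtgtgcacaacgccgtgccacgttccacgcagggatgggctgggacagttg
FASN holds none of the 3 motifs in this window. ACLY holds 2 CCAAT and 3 GC boxes, ELOVL5 holds 1 E-box, 2 CCAAT boxes and 1 GC box, and ME1 holds 2 GC boxes. Among the 10 lipogenic genes called lower in the direct comparison, 2 windows held the E-box, 4 the CCAAT box and 7 the GC box, beside 6.38%, 31.9% and 45.9% of 19572 promoter windows of the same length. A match is a run of letters and not a measured binding site.

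**Figure D2:**
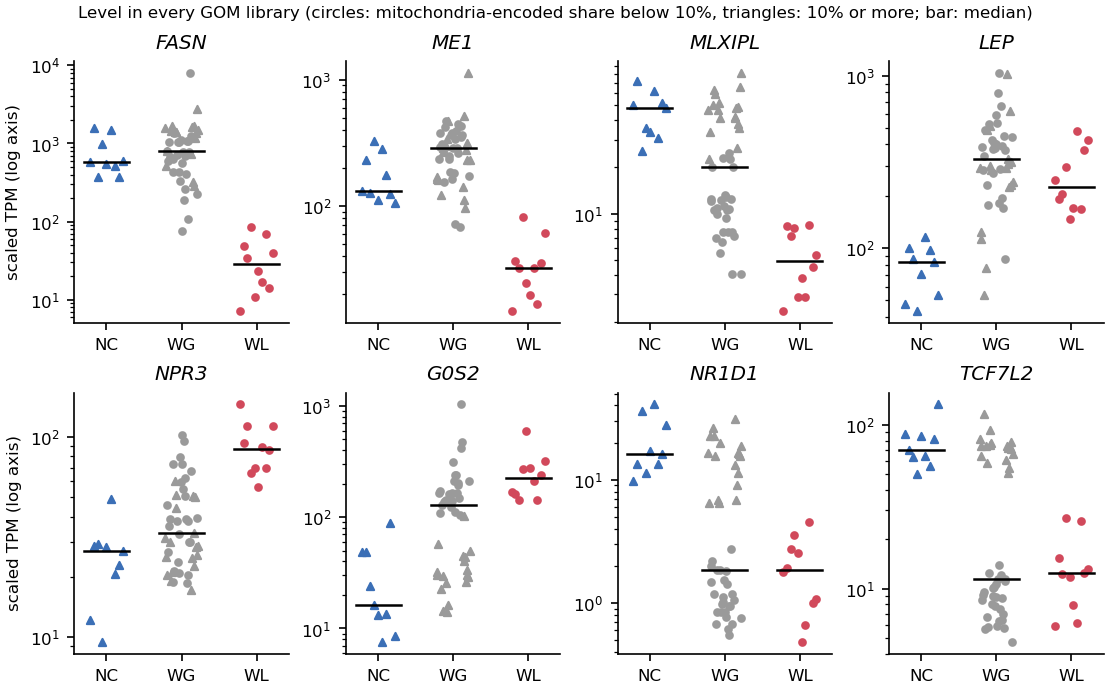
Scaled TPM (log axis) of 8 genes in every GOM library of NC, WG and WL, with triangles for a mitochondria-encoded share of 10% or more, circles for a lower share and a bar at the group median. FASN, ME1 and NPR3 of WL lie apart from NC while the 2 kinds of WG library overlap, whereas NR1D1, TCF7L2 and G0S2 of WG split by the share.

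Of the 16 lipolysis genes tested, 7 rose and 2 fell in WL (median 0.52), beside 15.4% and 20.7% of all PCGs. With the set as a term only NPR3 and PLIN5 rose and PDE3B fell (median 0.27), beside 6.86% and 7.74% of all PCGs. NPR3, the clearance receptor that removes natriuretic peptides, which are lipolytic hormones, spanned 9.42 to 49.1 (median 26.8) in NC and 56.5 to 146 (median 87.6) in WL. All WL libraries lay above all NC libraries, and the log2 fold change was 1.84 ± 0.24, adjusted p = 2.58e-06 (1.34 ± 0.34, adjusted p = 0.00361 with the set). PDE3B, the phosphodiesterase through which insulin restrains lipolysis, fell by less, at -0.69 ± 0.13, adjusted p = 0.000188 (-0.85 ± 0.24, adjusted p = 0.00718 with the set). G0S2, an inhibitor of adipose triglyceride lipase, spanned 7.52 to 89.6 (median 16.2) in NC and 144 to 598 (median 224) in WL without overlap, at 3.11 ± 0.43, adjusted p = 3.87e-06 in the direct comparison.

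G0S2 was not called with the set as a term, at 0.53 ± 0.46, adjusted p = 0.449. The WG libraries of high and low share lay at 14.2 to 104 and 105 to 1033. HILPDA, another inhibitor of that lipase, also lay without overlap at 13.5 to 45.8 (median 24.2) in NC and 61.4 to 103 (median 91.1) in WL (1.92 ± 0.21, adjusted p = 2.46e-07), and missed the threshold with the set (0.93 ± 0.35, adjusted p = 0.0539). The β1-adrenoceptor gene ADRB1 went from 1.57 ± 0.29, adjusted p = 0.000126 to 0.63 ± 0.40, adjusted p = 0.277. PNPLA2, the lipase itself, was called lower in the direct comparison (-0.86 ± 0.26, adjusted p = 0.00734) and had 0.27 ± 0.48, adjusted p = 0.741 with the set. LIPE (hormone-sensitive lipase) and PLIN1 (perilipin 1, a coat protein of the lipid droplet) were called in neither fit, with log2 fold changes of -0.12 and 0.051 in the direct comparison.

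Of 13 fatty acid uptake genes 3 rose and 1 fell in the direct comparison, and 3 rose and 1 fell with the set as a term. ANGPTL4 and GPIHBP1 rose and LPL fell in both. LPL, lipoprotein lipase, spanned 718 to 2316 (median 1101) in NC and 258 to 905 (median 497) in WL, overlapping between the groups, with a log2 fold change of -1.16 ± 0.25, adjusted p = 0.000467 (-1.04 ± 0.28, adjusted p = 0.0063 with the set). ANGPTL4, an inhibitor of LPL that rises with fasting, spanned 11.2 to 36.9 (median 19.4) in NC and 34.4 to 87.1 (median 63.7) in WL. Its log2 fold change was 1.49 ± 0.22, adjusted p = 1.16e-05 (1.61 ± 0.33, adjusted p = 0.000328 with the set). GPIHBP1, which carries LPL to the capillary wall, had 1.48 ± 0.20, adjusted p = 3.88e-06 (0.85 ± 0.29, adjusted p = 0.0303 with the set). It was lowest in NC replicate 5.

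In triglyceride synthesis 3 of 13 genes rose and 2 fell (median 0.34), and none of these 5 was called in the same direction with the set as a term. Over all PCGs 894 of 5214 kept their call. BSCL2 (seipin), which forms lipid droplets and was lower in the direct comparison, was called higher with the set. GPD1, which makes glycerol 3-phosphate, went from 1.27 ± 0.20, adjusted p = 1.72e-05 to -0.14 ± 0.33, adjusted p = 0.814, and LPIN1, a phosphatidate phosphatase, from -1.38 ± 0.27, adjusted p = 0.000237 to -0.30 ± 0.27, adjusted p = 0.457. Both overlap another annotated gene on the same strand (5258 bases for GPD1 and 4806 for LPIN1), so their counts are uncertain. In fatty acid oxidation and the fasting response 6 of 20 genes rose and 3 fell (median 0.25), and CPT1A alone kept its call. With the set as a term 1 rose and 2 fell, ACADM and ETFDH (median -0.22), and 5 of the genes called directly took the opposite sign. CPT1A, which admits long-chain fatty acids to mitochondria, spanned 28.9 to 52.9 (median 37.8) in NC and 48.0 to 93.4 (median 67.9) in WL and rose by 0.78 ± 0.14, adjusted p = 6.54e-05 (0.98 ± 0.20, adjusted p = 0.000278 with the set). PDK4, which spares glucose during fasting, was called in neither fit, at 0.37 ± 0.32, adjusted p = 0.344. PPARGC1A, a coactivator of mitochondrial biogenesis, was called lower in the direct comparison only (-1.84 directly and -0.82 ± 0.66, adjusted p = 0.404 with the set). Cholesterol synthesis and uptake had 4 of 20 genes higher and 3 lower, and 2 higher and 3 lower with the set.

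Of the 10 adipokine genes tested, 4 rose and none fell, and LEP and APLN were called higher in both fits. With the set as a term 2 rose and 1, NAMPT, fell. LEP (leptin; chromosome 18, 20106867 to 20124071) spanned 43.3 to 117 (median 83.7) in NC and 148 to 478 (median 228) in WL. No WL library reached down to an NC library, and the WG median was 327 scaled TPM. The log2 fold change was 1.80 ± 0.25, adjusted p = 3.47e-06 (1.48 ± 0.42, adjusted p = 0.00831 with the set). Within the sets LEP was higher in the WG libraries of high share than in NC, at 2.06 (adjusted p = 0.000116), and did not pass the test between WL and the WG libraries of low share, at -0.59 (adjusted p = 0.131). ADIPOQ was called in neither fit (0.28 ± 0.24, adjusted p = 0.342), and CFD (adipsin) lost its call, from 0.80 to -0.047 ± 0.33, adjusted p = 0.944 with the set.

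Among 17 adipogenic transcription factors 4 rose and 5 fell, and only PPARG, the master regulator of the adipocyte programme, was called in the same direction with the set as a term. With the set 4 were called higher (GATA2, GATA3, KLF4 and TCF21) and 2 lower (KLF9 and PPARG). Of the direct calls 7 took the opposite sign. PPARG spanned 77.8 to 245 (median 181) in NC and 47.9 to 129 (median 82.6) in WL, with NC replicate 5 lowest in its group, and its log2 fold change was -1.04 ± 0.19, adjusted p = 8.42e-05 (-0.69 ± 0.21, adjusted p = 0.0137 with the set). CEBPA, which cooperates with it, had 1.42 ± 0.21, adjusted p = 7.13e-06 in the direct comparison and -0.41 ± 0.39, adjusted p = 0.488 with the set, and KLF5 had -1.58 and 0.19 ± 0.47, adjusted p = 0.823. FKBP5, a target and brake of the glucocorticoid receptor, fell in both, at -1.73 ± 0.36, adjusted p = 0.000353 (-1.05 ± 0.37, adjusted p = 0.0399 with the set). Of the 16 insulin signalling and glucose transport genes 2 fell in the direct comparison. Neither of these was called with the set, where SLC2A4 (GLUT4) and SLC2A5 were called lower.

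Clock genes were lower in WL in the direct comparison, 8 of 17 with none higher (median -0.47), and this did not hold with the set as a term, where 1 rose, 1 fell and 7 of the 8 took the opposite sign (median 0.27). NR1D1 spanned 9.71 to 40.8 (median 16) in NC and 0.481 to 4.55 (median 1.85) in WL without overlap (-3.32 ± 0.38, adjusted p = 3.85e-07), and had 0.38 ± 0.39, adjusted p = 0.535 with the set. PER1, a repressor of the clock that also responds to glucocorticoids, was lower in the direct comparison (-1.10 ± 0.25, adjusted p = 0.000768) and called higher with the set (0.76 ± 0.23, adjusted p = 0.0161). CIART, another clock repressor, was lower in both (-1.32 ± 0.20, adjusted p = 1e-05 directly and -1.49 ± 0.30, adjusted p = 0.000277 with the set), although it shares 3222 bases with a gene on the same strand. TCF7L2 behaved as NR1D1 did, at -2.48 ± 0.27, adjusted p = 1.87e-07 and 0.60 ± 0.24, adjusted p = 0.0721.

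Immediate early and stress genes took different calls in the 2 fits. In the direct comparison 4 of 16 rose and 5 fell, and with the set as a term 9 rose and 1 fell (median 1.12). ZFP36, which destabilises cytokine mRNAs, spanned 96.8 to 256 (median 149) in NC and 21.6 to 93.5 (median 37.5) in WL without overlap. Its log2 fold change was -1.96 ± 0.26, adjusted p = 2.84e-06 in the direct comparison and 1.23 ± 0.26, adjusted p = 0.000397 with the set. The WG libraries of high and low share lay at 137 to 327 and 15.4 to 45.9. EGR1, an immediate early transcription factor, turned likewise from -1.79 ± 0.30, adjusted p = 4.82e-05 to 1.24 ± 0.38, adjusted p = 0.0154.

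The 13 mitochondria-encoded genes were lower in WL in the direct comparison, which is the measure that defines the set, so no result is read from them with the set as a term. ND4, a subunit of complex I, spanned 8082 to 53979 (median 13851) in NC and 29.1 to 808 (median 162) in WL. Of 27 nuclear-encoded respiratory chain genes, 5 rose and 3 fell in the direct comparison (median 0.31), and none rose and 10 fell with the set (median -0.55), among them NDUFA4, NDUFB8, SDHC, UQCRC2 and UQCRFS1. UQCRC1, a core subunit of complex III, went from 1.07 ± 0.14, adjusted p = 1.38e-06 to -0.24 ± 0.17, adjusted p = 0.334. Of 22 cytosolic ribosomal protein genes 6 rose and 1 fell in the direct comparison and 0 rose and 3 fell with the set. RPLP0 went from 1.40 ± 0.12, adjusted p = 2.12e-08 to -0.14 ± 0.19, adjusted p = 0.653, and MRPL57, a mitochondrial ribosomal protein that spanned 4.41 to 19.3 (median 5.85) in NC and 55.9 to 97.9 (median 76.6) in WL, from 3.24 ± 0.24, adjusted p = 3.65e-09 to -1.04 ± 0.61, adjusted p = 0.231. The WG libraries of high and low share held 1.86 to 22.8 and 47.2 to 1939 of MRPL57.

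Inflammatory genes were called in both directions in the direct comparison and rarely with the set. Of 16 cytokine genes tested, 2 rose and 3 fell, near the 15.4% and 20.7% of all PCGs (none and 1 with the set). Of 18 chemokine and receptor genes 2 rose and 1 fell (1 and none with the set). Of 21 interferon-stimulated genes 2 rose and 2 fell, and of 12 complement genes 1 fell, none of them with the set. IL6 (-0.12 ± 0.29, adjusted p = 0.758), IL10 (0.29 ± 0.38, adjusted p = 0.552) and CCL2 (0.26 ± 0.43, adjusted p = 0.632) did not pass the test, nor did they with the set (-0.12, -0.21 and 0.52, adjusted p = 0.872, 0.736 and 0.499). SHARPIN, an adaptor of NF-κB signalling, spanned 3.32 to 8.79 (median 6.52) in NC and 12.9 to 20.1 (median 16.9) in WL. WL lay above NC in every library, at 1.43 ± 0.15, adjusted p = 1.13e-07 (0.80 ± 0.20, adjusted p = 0.00281 with the set). Since the study picked it from GOM of these pigs, its direction is no independent evidence. Of the 3 other genes of its list (CD180, TNFRSF1A and CLEC7A), which the study picked from other fat depots, CD180 was called lower in GOM in the direct comparison and CLEC7A with the set. None of 3 inflammatory memory markers tested was called in either fit, and of 10 hypertrophy genes named by the study 4 rose and 2 fell, none with the set.

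Macrophage markers were mixed: 1 of 16 rose and 4 fell, beside 15.4% and 20.7% of all PCGs. With the set none rose and 3 fell, beside 6.86% and 7.74%. CD163, a scavenger receptor of resident macrophages, spanned 91.9 to 365 (median 187) in NC and 61.3 to 189.7 (median 111) in WL. It fell in both (-0.76 ± 0.26, adjusted p = 0.0185 directly and -1.33 ± 0.38, adjusted p = 0.00859 with the set). CD68, a lysosomal macrophage protein, fell in the direct comparison only (-1.15 directly and 0.44 ± 0.41, adjusted p = 0.491 with the set). Of 13 markers of lipid-associated macrophages 4 rose and 1 fell, and 1 rose and 1 fell with the set. TREM2, their defining receptor, spanned 3.18 to 26.7 (median 6.75) in NC and 1.75 to 20.1 (median 9.03) in WL and was called only with the set (0.28 ± 0.38, adjusted p = 0.554 directly and 1.10 ± 0.38, adjusted p = 0.0348 with the set). SPP1 (osteopontin) rose in the direct comparison (1.45) and had 0.24 ± 0.68, adjusted p = 0.848 with the set. TNFRSF17, the plasma cell receptor BCMA, spanned 0 to 14.4 (median 5.40) in NC and 0.161 to 1.24 (median 0.633) in WL. It fell in both (-2.95 ± 0.51, adjusted p = 4.96e-05 directly and -4.24 ± 0.64, adjusted p = 1.34e-06 with the set), with WG libraries at 0 to 1.77. Of 11 B and plasma cell markers 3 rose and 2 fell (none and 2 with the set). Of 15 T and NK cell markers 3 rose (1 with the set), and of 6 MHC class II genes 2 rose (none with the set). Of 7 neutrophil and mast cell markers none was called directly, and 1 rose and 2 fell with the set.

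None of the 9 calls among collagens held with the set, beside 894 of 5214 kept over all PCGs. Most calls were thus lost over all PCGs too, and this is not read as particular to collagens. Of 22 fibrillar and type VI collagens and crosslinkers 4 rose and 5 fell, and only LOXL1 was called, higher, with the set. COL1A1 spanned 62.2 to 257 (median 150.5) in NC and 23.8 to 67.0 (median 32.1) in WL. It went from -2.03 ± 0.25, adjusted p = 8.2e-07 to 0.088 ± 0.40, adjusted p = 0.911. COL3A1 had 0.78 and 0.43 ± 0.38, adjusted p = 0.464. In the basement membrane list 4 of 16 rose and 3 fell (3 and none with the set). COL4A4 spanned low levels, 0.0402 to 0.4 (median 0.21) in NC and 0.349 to 4.20 (median 0.96) in WL, with WL replicate 9 highest. It rose in both (2.58 ± 0.44, adjusted p = 5.01e-05 directly and 2.97 ± 0.52, adjusted p = 2.7e-05 with the set). MMP11, stromelysin 3, spanned 3.96 to 9.13 (median 7.69) in NC and 14.6 to 26.4 (median 18.7) in WL without overlap. It rose in both (1.39 ± 0.13, adjusted p = 5.44e-08 directly and 1.09 ± 0.19, adjusted p = 3.42e-05 with the set). Of 16 metalloproteinase and inhibitor genes 4 rose and 1 fell (2 and none with the set).

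WNT genes gave 3 of 16 higher and 1 lower in WL, beside 15.4% and 20.7% of all PCGs. With the set 4 were higher and none lower, beside 6.86% and 7.74%. WNT9A, a WNT ligand, spanned 2.75 to 10.8 (median 6.67) in NC and 12.0 to 27.2 (median 15.9) in WL without overlap. It rose in both (1.5 ± 0.22, adjusted p = 9.39e-06 directly and 0.81 ± 0.27, adjusted p = 0.0282 with the set), as did WNT6 (2.60 ± 0.48, adjusted p = 0.000114 directly and 1.93 ± 0.65, adjusted p = 0.0291 with the set), which overlapped at 0.284 to 1.97 (median 0.676) in NC and 0.679 to 15.7 (median 3.56) in WL. In the IGF axis 5 of 12 rose and 3 fell (2 and none with the set). IGFBP2, a binding protein of IGFs, went from 1.67 ± 0.22, adjusted p = 2.28e-06 to 0.58 ± 0.28, adjusted p = 0.14. Of 16 proliferation genes 1 rose and 4 fell (none and 3 with the set).

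Of 13 endothelial markers 4 rose and 2 fell in the direct comparison, beside 15.4% and 20.7% of all PCGs. With the set 5 rose and none fell (median 0.60), beside 6.86% and 7.74%. CLDN5, a tight junction protein of endothelium, spanned 12.3 to 24 (median 20.2) in NC and 50.2 to 118 (median 94.8) in WL without overlap. It went from 2.10 ± 0.16, adjusted p = 5.02e-09 to 0.13 ± 0.37, adjusted p = 0.849. FLT1, a VEGF receptor, turned from -1.11 ± 0.24, adjusted p = 0.000504 to 0.76 ± 0.24, adjusted p = 0.02. RGS5, a marker of pericytes, spanned 72.1 to 156 (median 101.8) in NC and 7.49 to 36.9 (median 20.1) in WL without overlap. It fell in both (-2.35 ± 0.23, adjusted p = 6.48e-08 directly and -1.73 ± 0.29, adjusted p = 1.7e-05 with the set). TAGLN, an actin-binding protein of smooth muscle, rose in both (1.16 ± 0.17, adjusted p = 7.14e-06 directly and 0.81 ± 0.27, adjusted p = 0.0274 with the set), and the smooth muscle and pericyte list of 12 had 1 higher and 2 lower (2 and 1 with the set). Of 6 lymphatic endothelial markers 1 rose and 1 fell (none with the set).

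Markers of other cells that a dissection could carry were looked at by list. All 4 erythroid genes tested rose (median 2.50) and none was called with the set (median 0.39). Their summed scaled TPM was 138 to 2408 in NC and 1587 to 10731 in WL. HBB (β-globin, of a family with close copies) had 2.25 ± 0.50, adjusted p = 0.000703 in the direct comparison and 0.43 ± 0.61, adjusted p = 0.669 with the set. Of 5 pancreas and liver markers 2 rose (none with the set), and their summed scaled TPM was 99.2 to 580.3 in NC and 149.7 to 7532 in WL, with medians of 182 and 252. Of 3 skeletal muscle markers 2 fell (none with the set), at a sum of 3.92 to 11.9 in NC and 2.25 to 9.28 in WL. Of 5 Schwann and nerve cell markers 1 fell (none with the set). Among the resident cells of the tissue, 4 of 11 adipocyte markers rose and 2 fell (1 and 1 with the set), and 3 of 9 mesothelial markers rose (none with the set). Of 13 fibroblast and fat progenitor markers 2 fell (3 rose and 2 fell with the set). The summed scaled TPM of adipocyte markers was 7492 to 12772 in NC and 7593 to 15829 in WL. Their part in the results was not tested.

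**Figure D3:**
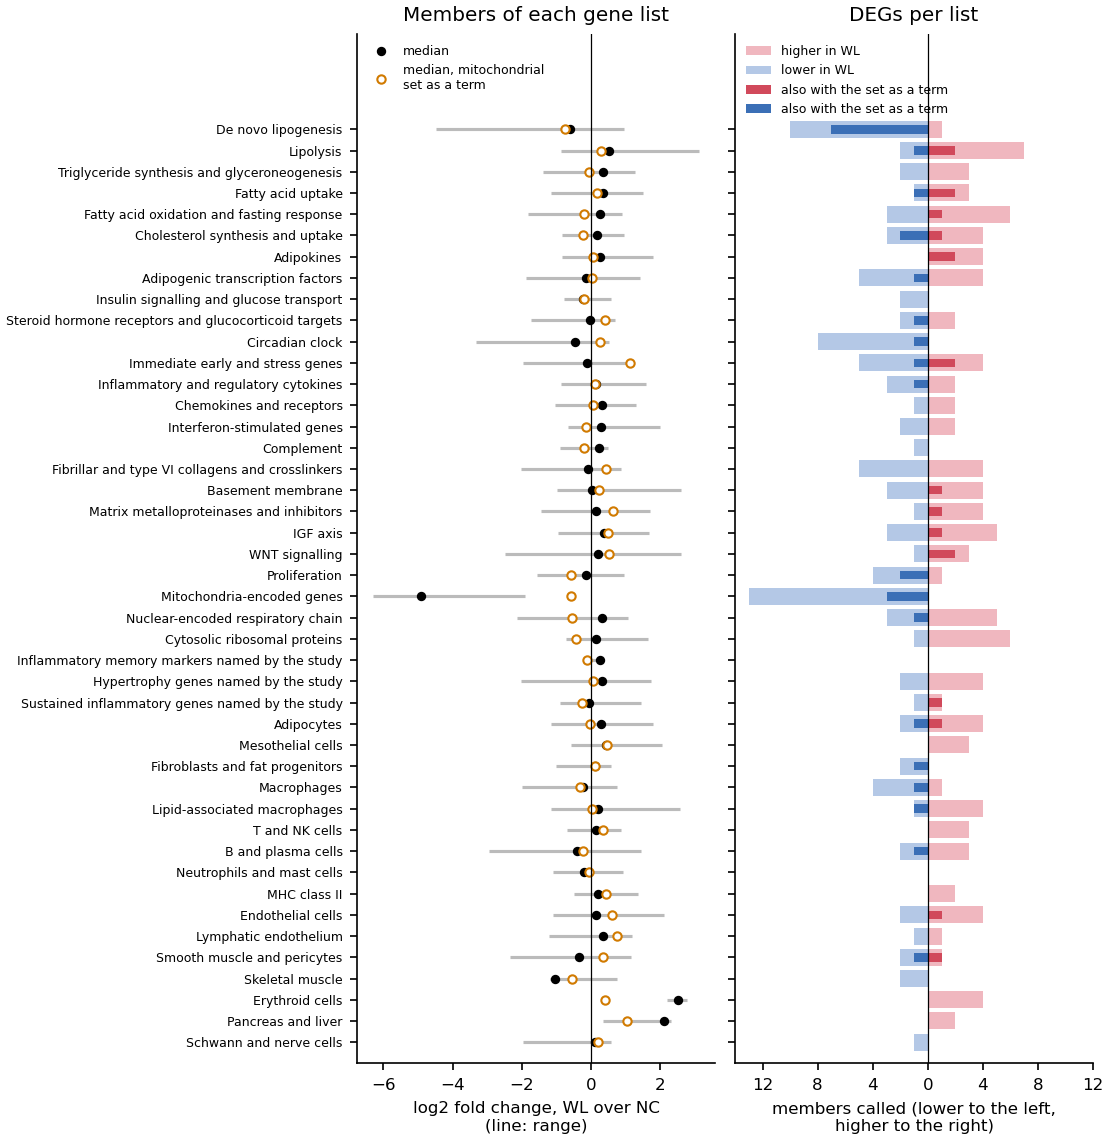
Left, the median (black), the range (line) and the median with the mitochondrial set as a term (orange ring) of log2 fold changes of WL over NC in each gene list of at least 3 genes tested. Right, the number of members called higher (to the right) or lower (to the left) in WL, with dark bars for those also called in the same direction with the set as a term; the lipogenesis bar keeps 7 of 10 and the clock bar 1 of 8.

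The genes with the largest fold changes were partly of each kind. RGS17, a regulator of G protein signalling, spanned 0.188 to 1.83 (median 1.28) in NC and 4.53 to 16.7 (median 10.9) in WL without overlap and rose in both fits (3.30 ± 0.38, adjusted p = 4.66e-07 directly and 3.16 ± 0.50, adjusted p = 3.45e-06 with the set). FCN2, a lectin of the complement system, rose in both as well (2.94 ± 0.42, adjusted p = 6.68e-06 directly and 2.25 ± 0.54, adjusted p = 0.00181 with the set). It spanned 3.91 to 14.3 (median 8.35) in NC and 2.83 to 123 (median 65.5) in WL, and replicate 6 of WL lay below every NC library while the WL median lay above the NC range. CHAC1, a glutathione-degrading enzyme of the stress response, spanned 1.86 to 49.3 (median 7.29) in NC and 0.466 to 2.11 (median 0.736) in WL. It fell in both (-4.24 ± 0.57, adjusted p = 2.88e-06 directly and -4.08 ± 0.73, adjusted p = 4.45e-05 with the set). SLC36A2, an amino acid transporter found in adipocytes, spanned 1.98 to 26.9 (median 4.66) in NC and 0.16 to 0.852 (median 0.305) in WL without overlap. It fell in both (-4.26 ± 0.47, adjusted p = 2.79e-07 directly and -2.85 ± 0.58, adjusted p = 0.000293 with the set).

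NANOS1, TMEM238 and ARHGEF39 rose by 3.69, 3.66 and 3.34 on the log2 scale in the direct comparison and were not called with the set, at 0.28, -0.93 and 0.17 (adjusted p = 0.842, 0.46 and 0.884). In all, 65 of the 76 genes described by level here were called in the direct comparison. Of the 62 of these outside the mitochondrial genome, 31 were called in the same direction with the set as a term, and 17 took the opposite sign. All 31 were also called with the PCG share set as a second term. They include LRRC39, COX7A1 and IFN-DELTA-1, whose log2 fold changes differed between the PCG share sets, as described below. The second term therefore cannot show that a gene is free of a difference tied to that share.

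The direct comparison was also split by the PCG share of the libraries. With the share set as a term 2205 PCGs were higher and 2956 lower (15.3% and 20.5%). In the libraries at or above 88% 2743 were higher and 2613 lower (19% and 18.1%), and below 88% 1943 and 2357 (13.5% and 16.3%). Of the 5214 genes of the pooled comparison, 3656 were called in the same direction at or above 88% and 163 took the opposite sign there. The test of the difference between the sets (interaction) called 323 PCGs, 97 with the larger log2 fold change below 88% (0.672%) and 226 with the smaller (1.57%). FASN had -4.30 below 88% and -4.51 at or above it, and LEP 1.47 and 2.48.

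LRRC39, a sarcomeric protein of striated muscle, COX7A1, a muscle isoform of a complex IV subunit, and IFN-DELTA-1, a type I interferon of pigs, differed between the sets. LRRC39 had a log2 fold change of -6.32 below 88% and of -0.83 at or above it. Its 7 NC libraries below 88% lay at 8.87 to 12.1 scaled TPM, the 2 others at 0.556 and 0.686, and WL at or below 0.544. COX7A1 had -2.49 and 0.50, with NC libraries at 48.0 to 77.6 below 88% and 8.21 and 8.79 at or above it. IFN-DELTA-1, whose counts are uncertain because interferon genes have close copies, had -5.01 and -0.054, with NC libraries at 6.55 to 41 and 0.562 and 1.52. In these 3 genes the 2 NC libraries with a high PCG share resembled WL. All 3 were still called lower with the mitochondrial set as a term, LRRC39 at -6.18 and IFN-DELTA-1 at -3.31. That term thus did not remove a difference tied to the PCG share.

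**Figure D4:**
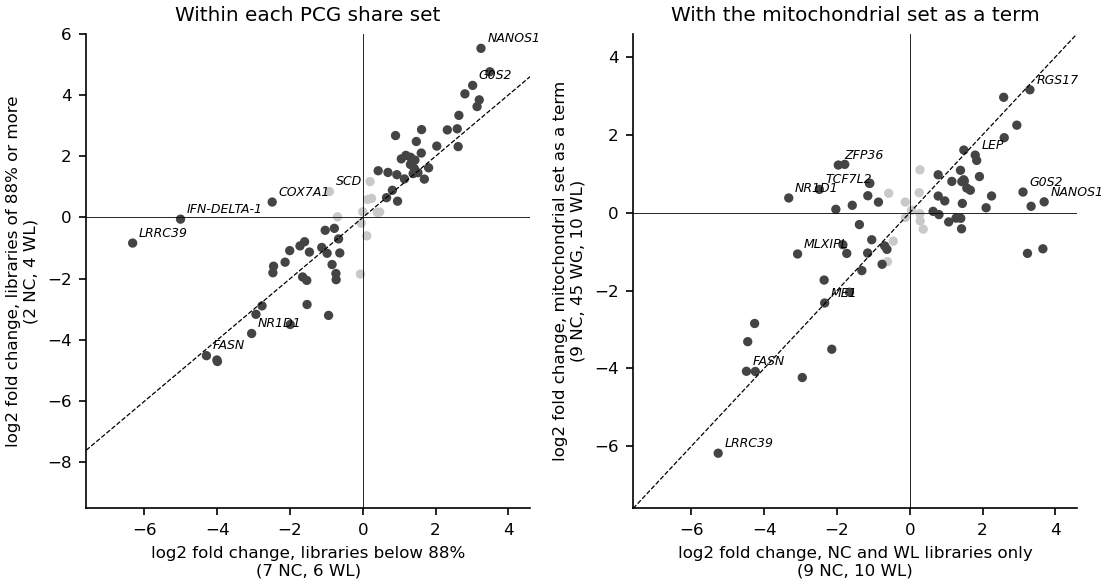
Log2 fold changes of WL over NC for the described genes outside the mitochondrial genome (dark, called in the direct comparison; light, not called). Left, libraries with a PCG share of 88% or more against those below it; LRRC39, COX7A1 and IFN-DELTA-1 lie far off the dashed line of equality. Right, the value with the mitochondrial set as a term against the direct one; FASN, RGS17 and LRRC39 lie near the line, whereas NR1D1, TCF7L2, ZFP36, G0S2 and NANOS1 lie near or beyond 0.

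Hi-C asked whether the compartments of the genome differed between NC and WL. The A-B index has no unit, and a positive value marks the open A and a negative value the closed B compartment in each of 113298 bins of 20 kb on 18 autosomes. The index carries no read depth, so the depth behind it is unknown here. The share of bins in A was 44.1 to 48.6% in NC (median 46.7%) and 45.4 to 51.0% in WL (median 49.1%). In limma, 9043 bins in the same compartment in over 80% of both groups had a higher and 531 a lower index in WL by over 0.75 at an adjusted p below 0.05 (A/B variables). These were 7.98% and 0.469% of bins, 8.45% together. This split depended on scaling. After quantile normalization between the 19 samples 2679 were higher and 1090 lower (2.36% and 0.962%, 3.33% together), so that the higher ones made 71.1% of the calls in place of 94.5%. The median difference of all bins went from 0.14 to -0.012. Of the 9043 bins 2494 were also called after that normalization, and 8661 were A in both groups.

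Over 80% of the samples of the groups were in opposite compartments in 81 bins (0.0715%), 80 of which went from B in NC to A in WL (0.0706%) and 1 the other way (0.000883%). After quantile normalization there were 41 such bins (0.0362%), 33 from B to A and 8 from A to B (0.0291% and 0.00706%). The frequency of A went from 30% or less to 70% or more in 940 bins (0.83%) and the other way in 55 (0.0485%). After quantile normalization these numbers were 360 and 346 (0.318% and 0.305%). The starts of VEGFC, a lymphatic growth factor, SSUH2, GNB5 and KCNAB1 lay in switched bins. VEGFC was in A in 0 of 9 NC and 9 of 10 WL samples. Its index spanned -1.12 to -0.019 in NC and -0.38 to 1.37 in WL, with a difference of 0.98 ± 0.21, adjusted p = 0.00342 (limma). Its expression was lower in WL in the direct comparison (log2 fold change -0.65, adjusted p = 0.0113) and did not pass the test with the set (0.11, adjusted p = 0.85). The bins were spread unevenly: chromosomes 1, 13, 2 and 6 held variables higher in WL in 14.8, 14.2, 14.03 and 12.8% of their bins, and chromosomes 17 and 18 in 0.567 and 1.04%.

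**Figure D5:**
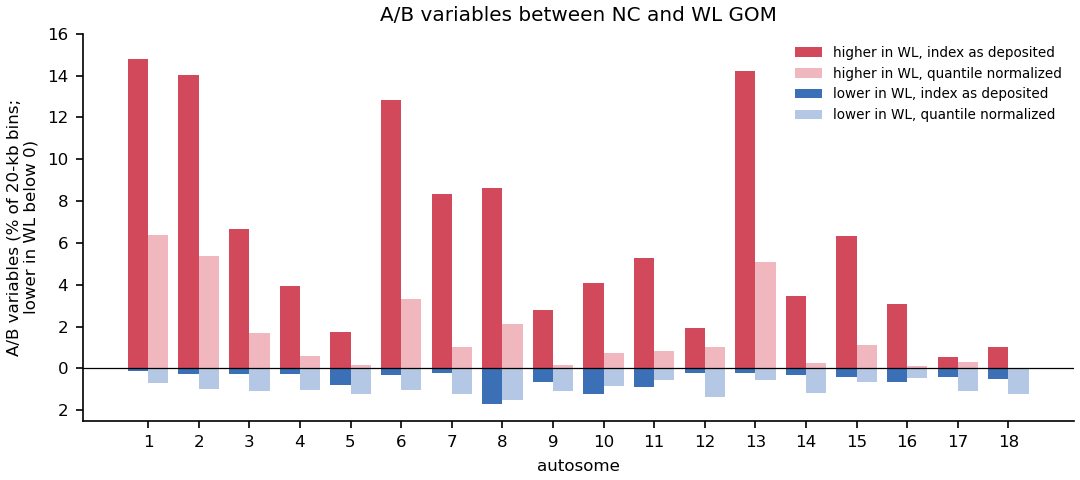
Share of the 20-kb bins of each autosome that were A/B variables, higher in WL above 0 and lower in WL below 0, for the index as deposited (dark) and after quantile normalization between the 19 samples (light). Chromosomes 1, 2, 6 and 13 have the highest shares with the index as deposited, and the light bars above 0 are lower than the dark ones on every chromosome.

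The largest index differences at gene starts with the same compartment in both groups were at TESK1 and CD72, which share a bin (2.51 ± 0.43, adjusted p = 0.00102), DAB2IP (2.31 ± 0.38, adjusted p = 0.000883), AMBP (2.24 ± 0.35, adjusted p = 0.000645) and AKAP12 (2.18 ± 0.39, adjusted p = 0.00139). All lay on chromosome 1 and were called after quantile normalization too. Expression in the direct comparison was higher in WL at AMBP, which encodes a plasma protein made mainly by liver (log2 fold change 3.39, adjusted p = 0.0214) and lower at AKAP12 (-0.99, adjusted p = 2.88e-05). Neither passed the test with the set, at 1.68, adjusted p = 0.324 and 0.19, adjusted p = 0.51. The most negative differences were at ZNF692 (-1.33 ± 0.31, adjusted p = 0.0067), NKX1-1 (-1.17 ± 0.31, adjusted p = 0.0133) and LRRTM1 (-1.11 ± 0.19, adjusted p = 0.0012).

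Among the genes described by expression, the index was higher in WL at ANGPTL4 (1.2 ± 0.21, adjusted p = 0.00127), CPT1A (1.12 ± 0.24, adjusted p = 0.00355) and TREM2 (1.15 ± 0.16, adjusted p = 0.00043). After quantile normalization ANGPTL4 was still called, at 0.78, and CPT1A and TREM2 were not, at 0.68 and 0.75. The index of TREM2 spanned 1.3 to 2.09 in NC and 2.37 to 3.55 in WL without overlap. It was also higher at EGR1 (1.75 ± 0.39, adjusted p = 0.0047), whose expression took opposite directions in the 2 fits. Other described genes with a higher index were ARHGEF39 (1.80 ± 0.30, adjusted p = 0.000996), CEBPA (1.13 ± 0.27, adjusted p = 0.00818) and MRPL57 (0.97 ± 0.20, adjusted p = 0.00303). Expression of these was not called with the set. TNFRSF17, lower in expression in both fits, had a higher index too (0.67 ± 0.17, adjusted p = 0.00938). The list is not complete. Differences did not pass the test at FASN (0.29 ± 0.15, adjusted p = 0.211), MLXIPL (0.10 ± 0.16, adjusted p = 0.73), NR1D1 (0.16 ± 0.19, adjusted p = 0.601), G0S2 (0.23 ± 0.24, adjusted p = 0.544) or LEP (0.63 ± 0.23, adjusted p = 0.067). The first 4 of these turned negative after quantile normalization, at -0.15, -0.33, -0.26 and -0.19.

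Of 1859 PCGs tested with a start in a variable bin that was higher in WL, 19.7% were called higher and 13.3% lower in expression (median log2 fold change 0.11), beside 16.4% and 15.3% of the 10584 PCGs with a start in any bin (median 0.04). With the set as a term the shares were 10.2% and 4.20%, beside 7.58% and 6.07% (medians 0.10 and 0.027). Across these 10584 genes, which are not independent replicates, the index difference and the log2 fold change had a Spearman correlation of 0.049. The compartments were not split by the mitochondrial share, which was measured in RNA.

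The pooled enhancer tables allow no test. NC held 20169 regions, 956 of them super-enhancers, over 539 Mb, and WL 22783 regions, 1442 of them super-enhancers, over 494 Mb. The median ratio of H3K27ac to input was 1.71 in NC and 1.92 in WL. Of 72 described genes looked at, 63 had a region within 10 kb in NC and 61 in WL. Ranks and super-enhancer calls come from lists of unequal length and are not compared between the groups. The best-ranked region within 10 kb of FASN lay past the end of the gene (937560), from 943200 in NC and from 941600 in WL. Its ratio was 1.55 over 62.4 kb in NC and 4.33 over 63.6 kb in WL. Whether it acts on FASN was not tested. At MLXIPL the ratio was 2.17 over 230.2 kb in NC and 3.53 over 36.6 kb in WL, and at ACLY 1.90 over 223 kb and 2.89 over 43.2 kb. The NC region at ACLY spanned the gene, whereas the WL region ended at 20793399, before the gene start at 20796678. The NC regions of MLXIPL and ACLY were called super-enhancers and the WL regions were not. At FASN the WL region was called a super-enhancer and the NC region was not. The regions of MLXIPL and ACLY differed in length, and no result is read from these calls. LEP had no region in either table.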

How the data were processed

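The samples were grouped by their deposited labels. The gene lists and the genes described were chosen with earlier results of these data known. RNA-seq libraries were stranded and depleted of rRNA; the authors estimated abundance with kallisto (0.43.0) and tximport against Sscrofa11.1, and the deposited tables hold the estimated counts and TPM that the authors made. None of the nonzero counts was a whole number (within 1e-09), so counts were rounded. PCGs over 0.5 TPM in at least 80% of the libraries of either group were tested with edgeR (4.0.16) quasi-likelihood tests and TMM factors, with Benjamini-Hochberg adjustment; genes were called at a fold change over 1.5 and an adjusted p below 0.05. SE is the log2 fold change over the square root of F. Each library is 1 pig. The code was tested on simulated data.

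A mitochondria-encoded share of 10% of PCG TPM split the libraries into 2 sets and the set term was fitted over 9 NC, 45 WG and 10 WL libraries. Scaled TPM is TPM times 0.948 to 1.29 in NC and 0.812 to 1.13 in WL; before that scaling the median log2 ratio of WL over NC was 0.30. The factors followed from all GOM libraries.

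The deposited A-B index is a score that the authors computed from balanced and batch-corrected Hi-C maps and was tested with limma (3.58.1). The deposited H3K27ac tables hold the authors' signal of ROSE regions on pooled samples. Regions were read within 10 kb of a gene. No sample matched 9 columns of counts, 2 of them named for NC GOM, or 9 columns of the index, and none was used.

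Genes were named by this rule: the 15 highest and 15 lowest log2 fold changes among genes with a symbol, at least 5 TPM in 1 group, called with and without the PCG share set as a term and of 1 sign within both sets; up to 4 called members per direction of each of 45 lists; and a fixed set. Of 204 genes so named, 76 are described by level. For the A-B index the rule took the 10 highest and 10 lowest variables and all switches. The histone list had no gene that passed the filter. Replicate numbers shared by NC and WL did not pair the libraries. Exact permutation tests used SciPy (1.17.1). Alternatives were DESeq2 (1.42.0), RLE factors, no filter, the share as a term or covariate, left-out libraries and a replicate block.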

Additional observations from a re-analysis of the deposited data

Results flagged for a closer look

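Of 164 sets of values looked at (each described gene and each library property in each group), 20 had a lowest or highest library that stood apart by a gap over 0.493 of the range of 9 NC or 0.466 of that of 10 WL libraries; chance gives about 1 in 20. NC replicate 5 was the lowest of its group for PNPLA2 (111.5 scaled TPM), GPIHBP1 (56.2), PPARG (77.8), MMP11 (3.96) and CLDN5 (12.3). NC replicate 7 was the highest for NANOS1 (4.93), TMEM238 (4.26) and SLC36A2 (26.9), and NC replicate 8 for IL10 (4.89) and TREM2 (26.7). NC replicate 10 was the lowest for TNFRSF17 (0). In WL, replicate 9 was the highest for COL4A4 (4.20), replicate 10 the lowest for IL10 (0.157), replicate 5 the highest for TMEM238 (12.5), replicate 6 the lowest for FCN2 (2.83) and replicate 4 the highest for SLC36A2 (0.852). Among library properties, WL replicate 9 had the lowest PCG share (70.8%) and the lowest mean correlation of its A-B index with the 18 other samples (0.941), NC replicate 8 the lowest such correlation in NC (0.961), and WL replicate 10 the lowest share of bins in A in WL (45.4%).

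The log2 fold change below a PCG share of 88% differed from that at 88% or more, by the interaction term of edgeR, for 4 described genes: the difference was 3.80 for ND4, -2.98 for COX7A1, -5.47 for LRRC39 and -4.94 for IFN-DELTA-1.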

How the results depend on the processing

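The mitochondrial set as a term, chosen after seeing the data, brought the genes called from 5214 to 2108, to 3183 without WG replicate 35, the shallowest library, to 2213 without the mitochondria-encoded genes and to 2957 with the PCG share set as a second term, and the list members called from 209 to 107. Log2 fold changes then turned to 0.27 for PNPLA2, 0.27 for LIPE, -0.14 for GPD1, -0.42 for PDK4, -0.047 for CFD, -0.027 for ADIPOQ, -0.41 for CEBPA, 0.19 for KLF5, 0.38 for NR1D1, 0.76 for PER1, 0.60 for TCF7L2, -0.24 for UQCRC1, -1.04 for MRPL57, -0.14 for RPLP0, 0.088 for COL1A1, -0.21 for IL10, 1.23 for ZFP36, 1.24 for EGR1, 0.44 for CD68, 0.76 for FLT1, -0.93 for TMEM238 and 0.50 for WT1. The cause was not tested. A fold change over 2 left 2718 genes. Of the 65 described genes called, 47 were called in every other fit, which included 2 normalizations, DESeq2, an exact test, the PCG share and the length of genes, and left-out libraries. The other reversals were of genes not called or within 1 share set: SCD 0.85, ACACA 0.023 and COX7A1 0.50 at a PCG share of 88% or more, and IL6 0.11 below 88% and 0.073 without the 2 NC libraries of high share. The log2 fold change of PLIN1 was -0.000678 below 88%, -0.0875 in the replicate block and -0.0479 to 0.0755 with 1 library left out (PCG share set as a term).

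The A/B variables numbered 3769 after quantile normalization and 5121 at an adjusted p below 0.01 in place of 9574, and the switches 41 in place of 81. Frequency changes went from 995 to 647 in the samples of the replicate block and to 212 with classes of 80% and 20%. Index differences turned to -0.15 for FASN, -0.26 for NR1D1, -0.33 for MLXIPL and -0.19 for G0S2 after quantile normalization. Numbers shared by an NC and a WL library correlated in their deviations at a median r of 0.0016, with 1 of 9 pairs over 0.1 and no NC library best with its own number. The replicate block called 2430 genes higher and 2911 lower and 9110 A/B variables. Without a filter on TPM 7043 of 20337 PCGs were called.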
